A study of Ambystoma mexicanum and Ambystoma andersoni and Ambystoma maculatum with 18 samples.

Results

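The distal tip of the regenerating forelimb of Ambystoma andersoni, Anderson's salamander, was profiled by RNA sequencing 24 h after amputation and compared with tissue taken at amputation (0 h). A. andersoni is a Mexican salamander closely related to the axolotl. Forelimbs of the larvae were severed at mid-zeugopod, in the lower arm, and 1 mm of mixed tissue was taken from the limb tip. The comparison rests on 6 of the 18 libraries of a study that sought expression changes shared by 3 Ambystoma species. There were 3 libraries at 24 h and 3 at 0 h, chosen by the species and time in the labels. Each library pooled tissue of 5 larvae. Neither strain, sex, age nor any other treatment is given in the labels, and both times share the amputation itself, so no uninjured limb of a later time stands beside the 24 h tips. The labels do not say whether any larva served in more than 1 pool, and p-values measure only the spread between these libraries.

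Salamanders regrow a whole limb after amputation. In the first day, skin epithelium moves over the wound and covers it, blood-borne cells enter the stump, and matrix and muscle under the wound begin to break down. A blastema, a mound of dividing progenitor cells from which the new limb forms, appears only after this phase. In salamanders a time of 24 h falls within this wound phase.

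Expression was measured for assembled features rather than for named genes. The table listed 889287 features, of which 244050 had no count in any library and 34397 had enough counts to be tested. The files do not pair the feature IDs with gene names, and 0 of the IDs were found in the RefSeq gene table of the axolotl assembly UKY_AmexF1_1. No gene, pathway or cell type could therefore be assigned, and the labelled tissue was not checked against its markers. An ID names an assembly component and then a feature inside it, and the table held 756714 components. In whole tissue, a change in the share of a cell type and a change in RNA per cell cannot be told apart.

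Library totals were 11416858 to 13686985 expected counts at 24 h and 14237389 to 17206949 at 0 h, so every 24 h library was shallower than every 0 h library. Tested features held 96.4% to 96.8% of the counts at 24 h and 96.8% to 97.6% at 0 h. Levels are given below as CPM, counts scaled to a common library size with trimmed-mean (TMM) factors. Across tested features, Pearson's r of log2(CPM + 1) was 0.925 to 0.973 between libraries at 24 h, 0.954 to 0.961 between libraries at 0 h and 0.880 to 0.929 between times. The second 24 h library stood apart from its group. It correlated with 24 h library 1 at 0.925, with 24 h library 3 at 0.932 and with 0 h library 2 at 0.929.

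Principal components showed the same arrangement. The first component held 49.1% of the variance and separated the times, with scores of 55.8, 58.3 and 55.9 at 24 h against -68.5, -42.2 and -59.2 at 0 h. The second component held 26.8% and set the second library of each time at one end, with scores of 45.1, -72.4 and 35.5 at 24 h against 9.84, -39.8 and 21.8 at 0 h. Library numbers follow accession order, and the labels do not say whether pools of different times were paired.

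**Figure D1:**
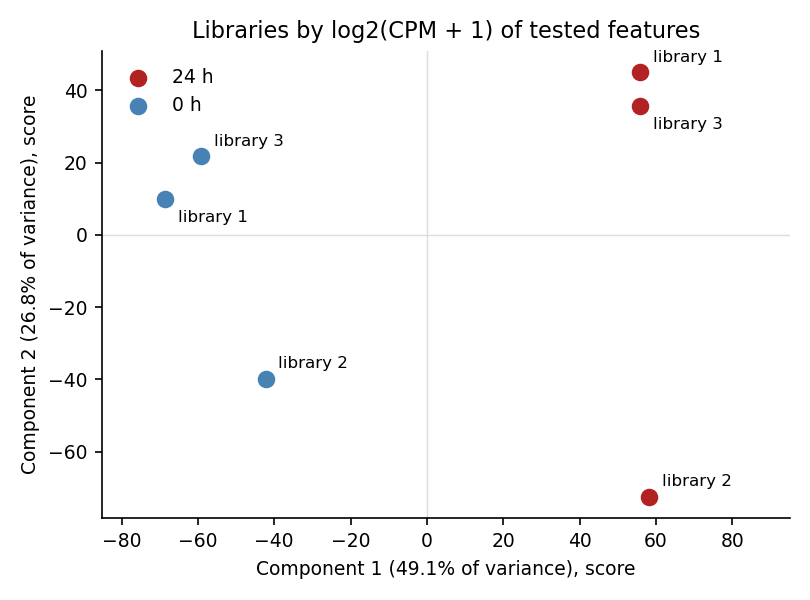
Principal component scores of the 6 libraries, from log2(CPM + 1) of the tested features (red, 24 h; blue, 0 h). Component 1 (49.1% of variance) separates the times, and component 2 (26.8%) places the second library of each time below the others, at -72.4 for 24 h and -39.8 for 0 h.

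By 24 h, 1299 features had risen and 675 had fallen (edgeR quasi-likelihood test, Benjamini-Hochberg adjusted p under 0.05, n = 3 each). These were 3.78% and 1.96% of the features tested, or 5.74% in either direction. Rises had a median log2 fold change of 2.17 and falls one of -2.09, against -0.00 over all tested features. Features of 3 or fewer counts in a group, 84 rises and 86 falls, were also set at the bound of that floor. Both medians were unchanged, but such features keep large fold changes at the bound, so this could hardly move a median. The times did not overlap in any of the 1299 rises or 675 falls. Over all tested features the 3 libraries of 24 h were the 3 highest in 13.9% and the 3 lowest in 14.9%. At an unadjusted p of 0.05, 7589 features, 22.1% of those tested, would pass.

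Most changes that passed were at least 2-fold, but small changes could hardly pass with 3 libraries a time. On the log2 scale 1229 rises and 637 falls changed by 1 or more, and 734 rises and 364 falls by 2 or more. A change of 3 or more was seen in 357 rises and 203 falls, and 5 or more in 72 rises and 79 falls. Over all 34397 tested features, 6148 changed by 1 or more, 1533 by 2 or more, 617 by 3 or more and 153 by 5 or more. Among rises, 855 (65.8%) had their lowest 24 h library at least 2-fold above their highest 0 h library. Among falls, 419 (62.1%) had their highest 24 h library at least 2-fold below their lowest 0 h library. A gap of at least 4-fold separated the times in 328 rises and 192 falls. Gaps were measured in called features only, so no share over all tested features stands beside them. The test on these same libraries favours features with wide gaps, so these counts are given as a description. Tested against a fold of 2 instead of no change (edgeR glmTreat), 324 features rose (0.942%) and 160 fell (0.465%), together 1.41% of those tested.

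**Figure D2:**
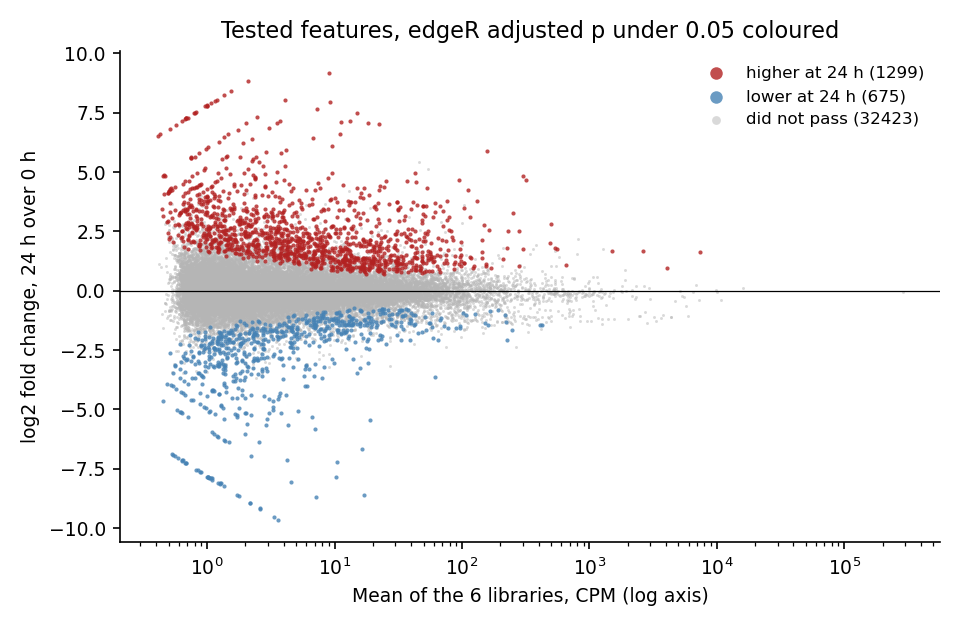
Log2 fold change, 24 h over 0 h, of every tested feature against its mean CPM over the 6 libraries (log axis). The 1299 features that rose are red, the 675 that fell are blue and the 32423 that did not pass are grey; features at or near 0 counts at one time form the outer diagonal lines, where the fitted fold depends on the prior count.

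Rises lay mostly at low levels at 0 h, as tested features did in general. At 24 h, 25 of the 1299 had a mean under 1 CPM, 692 had 1 to 10, 511 had 10 to 100 and 71 had 100 or more. At 0 h, 530 of them were under 1 CPM, 513 at 1 to 10, 242 at 10 to 100 and 14 at 100 or more. The median level of a rise was 8.10 CPM at 24 h, against 1.76 CPM at 0 h, while that of all tested features was 3.05 CPM at 24 h and 3.00 CPM at 0 h. The commonest step, in 481 rises, was a mean of 1 to 10 CPM at 24 h against a mean under 1 CPM at 0 h. The widest steps were rare. A mean of 10 to 100 CPM at 24 h stood against a mean under 1 CPM at 0 h in 24 rises, and a mean of 100 or more stood against 1 to 10 in 4.

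Falls ended at low levels. At 24 h, 346 of the 675 were under 1 CPM, 236 at 1 to 10, 86 at 10 to 100 and 7 at 100 or more. At 0 h, 5 were under 1 CPM, 439 at 1 to 10, 211 at 10 to 100 and 20 at 100 or more. The median level of a fall was 0.924 CPM at 24 h and 5.18 CPM at 0 h. That of all tested features was 3.05 CPM at 24 h and 3.00 CPM at 0 h. A call as a fall itself favours a low level at 24 h. The commonest step, in 330 falls, was a mean under 1 CPM at 24 h against 1 to 10 CPM at 0 h. A mean under 1 CPM at 24 h stood against 10 to 100 CPM at 0 h in 11 falls.

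Rises were found in every class of abundance, and falls in every class up to 1000 CPM. Under a mean of 1 CPM over the 6 libraries, 171 features rose and 85 fell, 4.96% of the 5164 tested there. From 1 to 10 CPM, 668 rose and 418 fell (5.28% of 20582). From 10 to 100 CPM, 423 rose and 159 fell (7.50% of 7760). From 100 to 1000 CPM, 33 rose and 13 fell (5.66% of 813). The median standard error of the log2 fold change was 0.51 under 1 CPM, 0.39 from 1 to 10, 0.23 from 10 to 100, 0.23 from 100 to 1000 and 0.28 from 1000 CPM. The smallest log2 fold change that passed was 1.71 in size under 1 CPM, 0.86 from 1 to 10, 0.69 from 10 to 100, 0.79 from 100 to 1000 and 0.95 from 1000 CPM, so it was smallest in the middle class and not in the most abundant one.

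**Figure D3:**
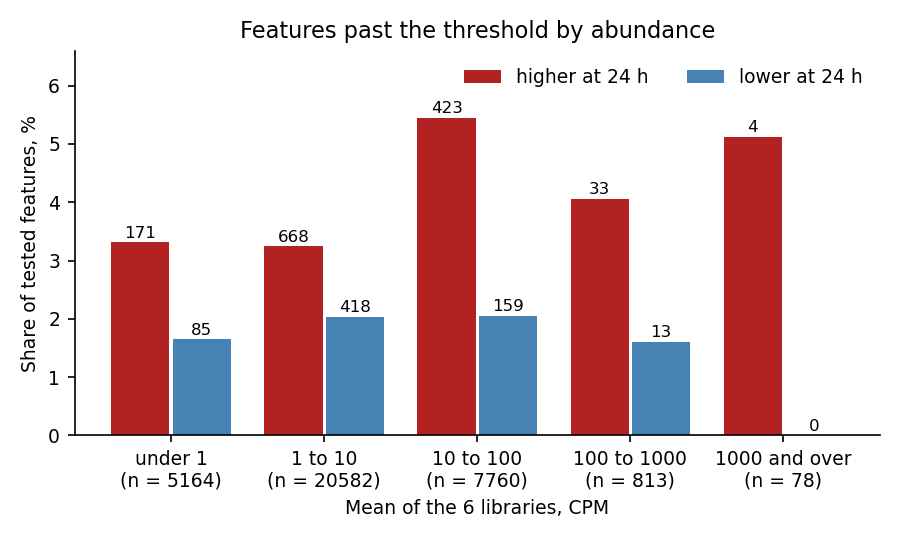
Share of tested features that rose (red) or fell (blue) at 24 h, in percent, by mean CPM over the 6 libraries, with the number of features over each bar and the number tested under it. The share that rose was 3.25% to 5.45% in the 5 classes, and no feature fell among the 78 with a mean of 1000 CPM or more.

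The direction of calls and the direction of complete separation did not match in number. From 1 to 10 CPM, the 24 h libraries were the 3 highest in 2630 features (12.8%) and the 3 lowest in 3045 (14.8%), although more features there passed as rises than as falls. From 10 to 100 CPM the numbers were 1268 (16.3%) above and 1429 (18.4%) below. Under 1 CPM they were 751 (14.5%) above and 473 (9.16%) below. Thus calls were more often rises in every class, while separation was more often downward from 1 to 1000 CPM.

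The summed level of the rises was 67311, 55951 and 53530 CPM in the 24 h libraries, against 19870, 18547 and 16561 CPM in the 0 h libraries. That of the falls was 4647, 3506 and 4776 CPM at 24 h, against 14324, 10271 and 11929 CPM at 0 h. Both sums describe features selected by the test on the same libraries. Among called features the gain was concentrated and the loss was spread. Features that were not called are outside both sums. Of the 78 features with a mean of 1000 CPM or more, 4 were called as rises and 0 as falls. Yet 17 of the 78 had a log2 fold change of -1 or below, and the times overlapped in all but 4 of them. The contrast thus depends on which abundant features passed. Of the summed difference of mean CPM among rises, 1 feature gave 18.4%, the first 4 gave 35.4% and the first 20 gave 52.3%. Among falls, the first feature gave 5.00%, the first 4 gave 16.6% and the first 20 gave 37.6%. As few as 16 rises made up 50% of the gain, against 43 falls for 50% of the loss.

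Among the called rises, the one with the largest gain, And_TR104219_c2_g1, had 15443, 10056 and 7753 CPM at 24 h, against 4708, 3094 and 3050 CPM at 0 h. All 24 h libraries were higher, the first most of all, and the first was also the highest library at 0 h. The feature averaged 11084 ± 3946 CPM at 24 h and 3617 ± 945 CPM at 0 h (SD, n = 3 each; log2 fold change 1.62, SE 0.34, edgeR adjusted p = 0.0337). Its expected counts were whole in all 6 libraries.

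And_TR85252_c2_g3 had 5986, 3490 and 2556 CPM at 24 h, against 1610, 1034 and 1151 CPM at 0 h. The times did not overlap, and the first library was again the highest at both. The means were 4011 ± 1774 CPM at 24 h and 1265 ± 304 CPM at 0 h (SD, n = 3 each; log2 fold change 1.66, SE 0.36, edgeR adjusted p = 0.0364). Its expected counts were not whole, as RSEM gives where reads are divided among features.

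Among the called falls, the one with the largest loss, And_TR449152_c1_g3, had 249, 176 and 269 CPM at 24 h, against 863, 365 and 645 CPM at 0 h. Some features that were not called lost more. The second library was the lowest at both times, and the gap between the times was 1.36-fold. The means were 231 ± 48.7 CPM at 24 h and 624 ± 250 CPM at 0 h (SD, n = 3 each; log2 fold change -1.43, SE 0.33, edgeR adjusted p = 0.0475). And_TR39765_c0_g2 had 266, 147 and 255 CPM at 24 h, against 815, 453 and 540 CPM at 0 h. The second library was again the lowest at both times, without overlap between them. Expected counts of this feature were not whole. The means were 223 ± 66.2 CPM at 24 h and 602 ± 189 CPM at 0 h (SD, n = 3 each; log2 fold change -1.44, SE 0.32, edgeR adjusted p = 0.0396).

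The calls of these 4 features were not stable. With any 1 library other than the second at 24 h left out, the edgeR adjusted p of And_TR104219_c2_g1 was 0.0511 to 0.112 and that of And_TR85252_c2_g3 was 0.0549 to 0.116. And_TR449152_c1_g3 had an adjusted p of 0.0771 to 0.145 with any 1 library other than the second at 0 h left out. And_TR39765_c0_g2 had one of 0.0858 to 0.114 with any 1 library left out other than the second of either time. Other settings also ended calls. All 4 failed the glmTreat test against a fold of 2, with adjusted p of 0.320 to 0.572. And_TR104219_c2_g1 was at an adjusted p of 0.0575 with edgeR's newer quasi-likelihood method. And_TR449152_c1_g3 was at 0.0518 with thinned libraries, 0.0612 as a component and 0.0708 among features of at least 5 CPM, and And_TR39765_c0_g2 was at 0.0530 as a component and 0.0621 among features of at least 5 CPM. Each call held in 9 to 11 of the 17 or 18 settings run for it, DESeq2 among them. The log2 fold changes of the 4 kept their sign in all settings run, between 1.26 and 1.93 for the rises and between -1.67 and -1.08 for the falls.

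Among the 20 rises with the largest gain, 10 had a log2 fold change of at least 2, and 7 were called in the same direction whichever library was left out. The feature at rank 16 changed most within this set. It had 345, 257 and 334 CPM at 24 h, against 5.94, 6.34 and 3.57 CPM at 0 h (log2 fold change 5.87, SE 0.31, edgeR adjusted p = 0.000866). Its lowest 24 h library was 40.5 times its highest 0 h library. Rank 10 had 497, 765 and 495 CPM at 24 h, against 19.9, 31.4 and 9.03 CPM at 0 h (log2 fold change 4.86, SE 0.48, edgeR adjusted p = 0.00338). Rank 8 was more uneven at both times, with 370, 1066 and 410 CPM at 24 h, against 15.8, 49.1 and 7.05 CPM at 0 h, and its second library was the highest at each. Rank 3 was the smallest change of the 20, with 5474, 5868 and 4856 CPM at 24 h, against 2604, 3216 and 2552 CPM at 0 h (log2 fold change 0.95, SE 0.22, edgeR adjusted p = 0.0466).

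Among the 20 falls with the largest loss, 3 had a log2 fold change of -2 or below, and 1 was called whichever library was left out. That feature, at rank 10, had 16.1, 3.74 and 7.83 CPM at 24 h, against 113, 91.6 and 134 CPM at 0 h (log2 fold change -3.62, SE 0.50, edgeR adjusted p = 0.00927). Its expected counts were not whole in all libraries. Rank 3 had 67.5, 66.9 and 125 CPM at 24 h, against 393, 249 and 453 CPM at 0 h (log2 fold change -2.08, SE 0.34, edgeR adjusted p = 0.0151). The other falls of the 20 lay between -0.79 and -2.06 on the log2 scale. The second library was the lowest of its time in 17 of the 20 falls at 24 h and in 17 at 0 h. Among all tested features with a mean of 100 CPM or more, it was the lowest in 58.9% at 24 h and 55.1% at 0 h. Over all tested features these shares were 45.8% and 33.3%. Among the 20 rises the first library was the highest in 10 at 24 h and in 10 at 0 h. Among all tested features of 100 CPM or more, it was the highest in 49.0% at 24 h and 36.1% at 0 h. Expected counts were whole in all libraries for 10 of the 20 rises and 14 of the 20 falls.

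**Figure D4:**
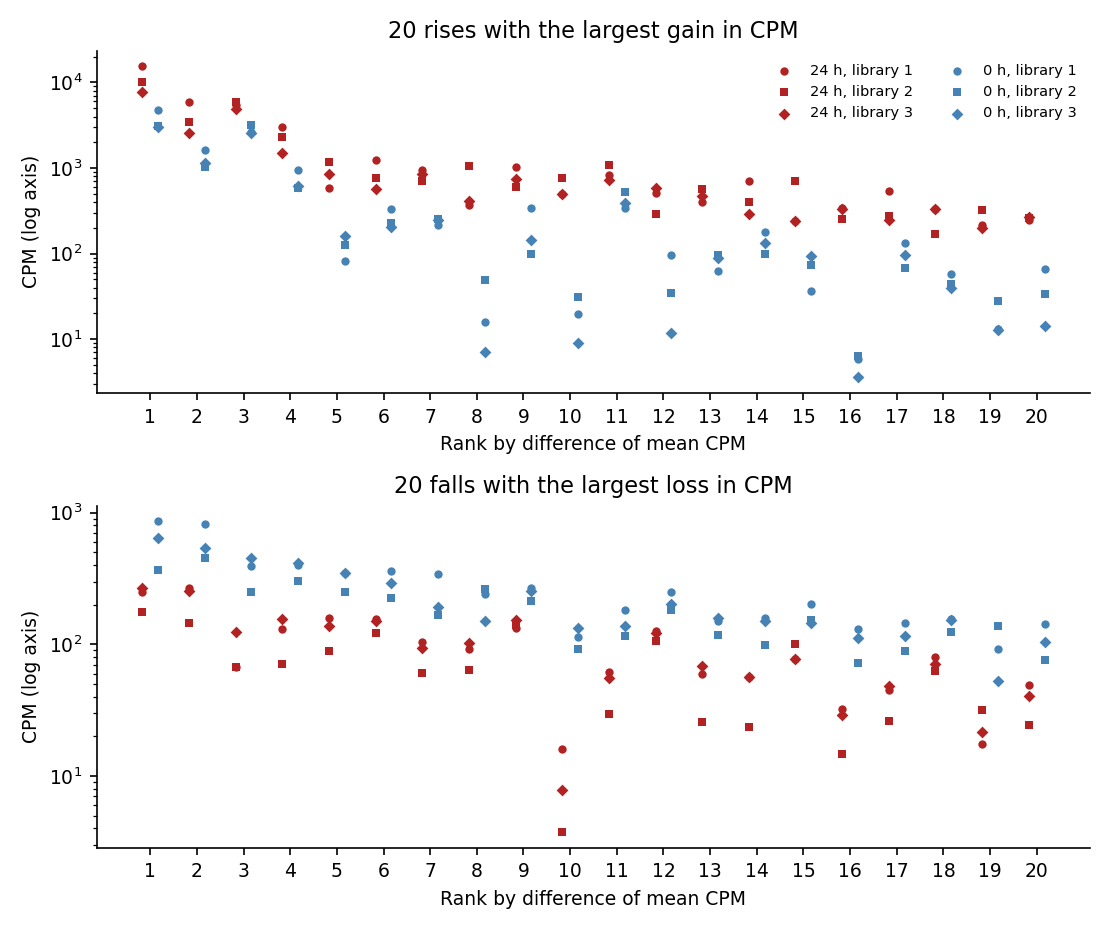
CPM (log axis) of each library for the 20 called rises with the largest gain (upper) and 20 called falls with the largest loss (lower). Features are ranked by the difference of mean CPM. Red points are 24 h libraries, blue points 0 h libraries, and the marker shape gives the library number. Rank 16 of the gains stands apart with 257 to 345 CPM at 24 h against 3.57 to 6.34 CPM at 0 h, and rank 10 of the losses with 3.74 to 16.1 CPM at 24 h against 91.6 to 134 CPM at 0 h.

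A core of changes was called in every fit that left out 1 library. In all 6 fits that each left out 1 library, 320 rises and 122 falls were called in the same direction, 22.4% of the 1974 calls and 1.28% of the features tested. The rises of this core had a median log2 fold change of 3.24, its falls one of -4.62. Being called in all 6 fits favours large changes, so these medians follow in part from the selection. The median of the mean levels was 7.73 CPM for rises of the core and 2.58 CPM for its falls. The smallest changes in this core were 1.33 among rises and -1.51 among falls. The total of calls fell by over 1.5 times in 5 of these fits. It was 667 (1.94%) with 24 h library 1 left out, 534 (1.55%) with 24 h library 3, 766 (2.23%) with 0 h library 1, 1273 (3.7%) with 0 h library 2 and 804 (2.34%) with 0 h library 3. Without the second 24 h library, which stood apart from its group, 2594 features (7.54%) passed, and 1714 of the 1974 calls were among them.

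Depth differed between the times, so the test was repeated with every library thinned to the same number of counts, 11416193. Of 30650 features tested, 1110 rose and 532 fell (5.36% in all), and 1579 of the 1974 calls were kept. The medians on the log2 scale were 2.19 for rises and -2.14 for falls. Other settings called 3.6% of features with library totals as the only scaling, 0.649% with no filter on low counts, 5.74% among features of at least 5 CPM and 9.71% with DESeq2.

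Of the 78 features with a mean of 1000 CPM or more, 4 rose, 0 fell and 56 had a log2 fold change below 0, with a median of -0.15. The 5.13% called there lay near the 5.74% over all tested features, of which 1.96% fell, so with 78 features the count of 0 falls is no sign that the class differed. At an unadjusted edgeR p of 0.05, 8 of the 78 would pass as rises and 11 as falls, and DESeq2 called 6 rises and 3 falls. Over all tested features 22.1% passed at that unadjusted p and 9.71% with DESeq2. A log2 fold change of -1 or below was seen in 17 of the 78, with edgeR adjusted p of 0.0771 to 0.282 and standard errors of 0.35 to 0.68. The times did not overlap in 4 of the 17. Over all tested features the 24 h libraries were the 3 lowest in 14.9%. In all 17 the second 24 h library was the lowest at 24 h. The second library was the lowest of its time in 57 of the 78 at 24 h and in 54 at 0 h. Over all tested features it was the lowest in 45.8% at 24 h and 33.3% at 0 h. Without the second 24 h library 5 of the 78 rose and 0 fell. The 78 features held 47.2% ± 6.72 of the expected counts at 24 h and 48.4% ± 10.2 at 0 h (SD, n = 3 each), a difference smaller than the spread between libraries.

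Among the 4 most abundant features, 3 belonged to 1 component. Their summed level was 381961, 186089 and 351379 CPM at 24 h, against 248279, 145685 and 563940 CPM at 0 h. The times overlapped and the third 0 h library was the highest. None of the 3 passed, with a smallest edgeR adjusted p of 0.900. The single most abundant feature held 26.8% ± 6.08 of the counts at 24 h and 25.6% ± 12.3 at 0 h (SD, n = 3 each; two-sided exact permutation p = 1).

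Assembled features of one component are sequences that an assembler kept together, such as pieces or variants of one transcript or of related genes. Of the 25969 components with a tested feature, 5989 held 2 or more, and the largest held 19. Features of a component tended to move together. Of the 1299 rises, 534 had another tested feature in their component, and of these other features 37.8% (350 of 927) also rose while 12 fell. Over all tested features 3.78% rose. Of the 675 falls, 240 had such a neighbour, and 24.0% of the other features (110 of 458) also fell while 12 rose, against 1.96% that fell over all tested features. The counts are of ordered pairs, so 2 features that both rose count each other.

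The pattern was also seen among features with whole counts. Expected counts were whole in all 6 libraries for 73.6% of rises, 75.7% of falls and 66.0% of all tested features. Among such features alone, 40.8% of the neighbours of rises also rose (160 of 392) and 26.0% of the neighbours of falls also fell (60 of 231). A neighbour moved the opposite way in 2 cases for rises and in 2 for falls. Rises and falls here count features, not genes.

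With counts summed over each component, 28313 components were tested, 1464 (5.17%) rose and 921 (3.25%) fell, 8.42% together. Rising components had a median log2 fold change of 1.83, and falling ones of -1.66. Of the components called, 1587 held a feature that was called alone and 798 held none. Of the 1778 components with a called feature, 1587 were called as a whole. Most called features were the only tested one of their component, where the sum adds only untested features, so much of this agreement was fixed in advance.

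The component with the most rises had 5 tested features, and all 5 rose, with log2 fold changes of 3.14 to 3.69. Its summed level was 470, 249 and 670 CPM at 24 h, against 8.18 to 58.2 CPM at 0 h. Its log2 fold change as a whole was 3.57 (edgeR adjusted p = 0.0138), and no library at 24 h overlapped with one at 0 h. The component with the most falls was called only in part. Of its 10 tested features 5 fell, with log2 fold changes of -4.51 to -3.27, while its summed level was 2474, 755 and 2327 CPM at 24 h, against 6371, 2541 and 4457 CPM at 0 h. As a whole it had a log2 fold change of -1.27 and did not pass (edgeR adjusted p = 0.135), though its times did not overlap either. Each of its 10 tested features had a log2 fold change below 0, from -4.51 to -0.46. The fall at rank 10 described above was one of the 5 called in this component.

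In 8 components, features moved in opposite directions. As a whole, 1 of the 8 passed, and their log2 fold changes were -1.38 to 1.00. Of the 20 called features in these components, 11 had expected counts that were not whole. Whether reads divided among features gave the opposite moves was not tested. The clearest exchange had 3 tested features with whole counts throughout. One fell, with 9.44, 10.1 and 10.3 CPM at 24 h, against 32.0, 25.3 and 27.9 CPM at 0 h (log2 fold change -1.51, SE 0.18, edgeR adjusted p = 0.00591). Another rose, with 6.35, 12.9 and 10.8 CPM at 24 h, against 0.566, 1.27 and 0.658 CPM at 0 h (log2 fold change 3.53, SE 0.42, edgeR adjusted p = 0.00607). The last also rose (log2 fold change 3.30, SE 0.68, edgeR adjusted p = 0.0322). Summed, the component stood at 19.7, 34.1 and 26.2 CPM at 24 h, against 32.9, 27.9 and 28.8 CPM at 0 h, with overlapping times and a log2 fold change of -0.17 (edgeR adjusted p = 0.668). What the 3 sequences are to each other was not tested.

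At equal counts more features were detected at 24 h, and the additional ones had few counts. In the counts as deposited, where the 24 h libraries were shallower, the times overlapped. There 249780 to 262548 features were above 0 at 24 h and 219838 to 266389 at 0 h. With all libraries thinned to 11416193 counts, 227317, 237141 and 247374 features were above 0 at 24 h, against 191605, 213844 and 194674 at 0 h. The means were 237277 ± 10029 at 24 h and 200041 ± 12052 at 0 h (SD, n = 3 each). The times did not overlap (two-sided exact permutation p = 0.1, the smallest that 3 against 3 can give, and 0.5 after Benjamini-Hochberg adjustment over 5 measures). The same separation, 231771 ± 14087 at 24 h against 194936 ± 15359 at 0 h, was seen once libraries were equalised without counting the most abundant feature.

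The difference at equal counts lay among features of low count. Features with 1 count numbered 127987 ± 5495 at 24 h and 108536 ± 4909 at 0 h, and those with 2 to 9 counts numbered 77244 ± 5663 at 24 h and 60825 ± 6181 at 0 h (SD, n = 3 each). In both classes the 24 h libraries were the 3 highest (exact permutation p = 0.1). Features with 10 or more counts numbered 32047 ± 1088 at 24 h and 30680 ± 3166 at 0 h, and the times overlapped (exact permutation p = 0.6). Among tested features alone, 34097 ± 46.3 were above 0 at 24 h and 34043 ± 136 at 0 h (exact permutation p = 0.8). That comparison could hardly show a difference, because the filter for testing kept only features with counts in several libraries.

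**Figure D5:**
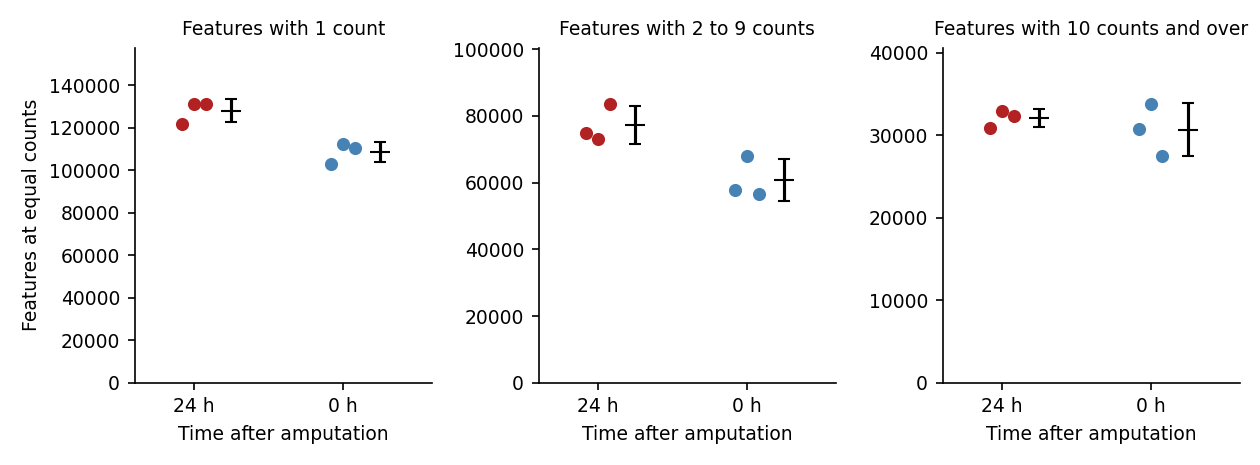
Number of features with 1 count, 2 to 9 counts and 10 or more counts in each library after thinning to equal counts (red, 24 h; blue, 0 h; bars, mean ± SD of 3 libraries). The 24 h libraries lie above all 0 h libraries in the first 2 panels and overlap with them in the last.

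Of features seen at only 1 of the times at equal counts, 5856 had counts in all 24 h libraries and none at 0 h, and 2966 had counts in all 0 h libraries and none at 24 h. In the counts as deposited, where the 24 h libraries were shallower, the numbers were 5510 and 4447, so the size of the imbalance depended on thinning. Their counts were low, with a median of 4 counts summed over the 3 libraries in both sets. Only 34 and 40 of them passed the filter for testing as deposited, and all 34 rose and all 40 fell. Passing the filter through 1 time alone made a difference between the times necessary, so these counts are given as a description.

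The remaining measures of whole libraries overlapped between the times. The 100 most abundant features held 49.2% ± 6.41 of the counts at 24 h and 50.3% ± 9.89 at 0 h (SD, n = 3 each; exact permutation p = 1). Features with a non-whole expected count in a library held 43.3% to 53.1% of the counts at 24 h and 40.4% to 58.2% at 0 h (exact permutation p = 1). The effective number of features, the number of equally abundant features that would give the same diversity outside the most abundant one, was 4609 ± 606 at 24 h and 3803 ± 664 at 0 h (exact permutation p = 0.2). The spread between libraries, as the common biological coefficient of variation, was 35.5% at 24 h and 30.0% at 0 h when each time was fitted alone. It was 32.8% over both.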

How the data were processed

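Whole limb-tip RNA was sequenced from 6 pools of A. andersoni larvae, with Illumina TruSeq libraries, per the labels. The labels give about 50000000 read pairs of 100 bp per library as the depth aimed at. The authors deposited expected counts, 1 value for each assembled feature and library, estimated by RSEM according to the submitters' processing notes. Its version, the aligner and the assembler: not given in the sources used here. RSEM divides reads that match several features, so near-identical features can trade counts. The table had 0 unused columns of values.

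Expected counts were rounded to whole numbers and tested with edgeR 4.0.16 in R 4.3.3 (filterByExpr, minimum count 10 and total 15, TMM, time as the only term, quasi-likelihood F test with the release's default, Benjamini-Hochberg adjustment over all tested features, threshold 0.05). Standard errors were derived from the F statistic. The procedure was tested on simulated data. A count was called whole within 0.005. The named features are the 2 rises and 2 falls with the largest difference of mean CPM among calls without overlap and with over 3 summed counts at each time; ranks to 20 follow the same order. Other features and components were chosen after their values were seen. Exact permutation tests compared whole-library measures over 20 arrangements. The members, measures and lists were chosen with earlier results of these data known. Alternatives included DESeq2 1.42.0, other scalings and filters, and leaving out each library; thinning before the test, and outside the most abundant feature, was added after seeing the data. Counting without molecular identifiers does not give independent molecules.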

Additional observations from a re-analysis of the deposited data

How the results depend on the processing

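No paired analysis was run, because the library numbers follow accession order and the labels do not say whether pools were paired. The numbers of rises and falls stayed within 1.5 times of 1299 and 675 with DESeq2-style size factors and upper quartile normalization. The same held with the newer quasi-likelihood method and without the most abundant feature. It also held for whole-count features, component sums and thinned libraries, which tested fewer features or components. Whole-count features gave 1981 calls among 22605 tested. Of the 1974 calls 1447 were among them, and 527 were not tested. Component sums called 8.42% of 28313 components, against 5.74% of 34397 features in the main test. Counts of rises and falls moved further with library totals alone (824 and 414), glmTreat (324 and 160) and DESeq2 (2018 and 1323). DESeq2 called 1955 of the 1974 calls. The counts also moved further with no filter on low counts (2101 and 2064) and a mean of at least 5 CPM (607 and 165). Both of these settings changed how many features were tested. Without a filter 641316 were tested and 0.649% passed. The 5 CPM setting tested 13445, of which 5.74% passed, the same share as in the main test, and left 1062 of the 1974 calls untested. A larger change is tested by glmTreat. Other causes were not tested. Leaving out 1 library gave 353 to 1800 rises and 181 to 794 falls. No call changed sign in any setting that refitted single features. The component sum had the opposite sign for 21 of the 1299 rises and 9 of the 675 falls, and 1 of these falls lay in a component called higher. Rises were 1299 of 1974 calls, against 50.4% of calls with no filter and 78.6% at 5 CPM or more. For the measures of whole libraries, as 24 h minus 0 h, leaving out 1 library gave -3.75 to 8.14 percentage points for the share in the most abundant feature, -5.47 to 4.29 for the 100 most abundant, -3.39 to 5.52 for non-whole features, 32188 to 44138 for features above 0 and 556 to 1186 for the effective number. Without the most abundant feature the difference for non-whole features was -0.206 points. With 3 libraries a time, low counts limit the size of change that can pass, as the smallest changes called by abundance show.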

Other observations

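Among tested features, 20 had the same 6 expected counts as another feature of their component, and 4 of these were rises, 0 falls. Of the 889287 feature IDs, 1 carried a prefix other than that of the rest.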
